A study of Mus musculus with 22 samples.

Results

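Alveolar macrophages, phagocytes that live in the air spaces of the lung, were compared after growth with primary tumor cells and after growth alone. The comparison used 6 of the 22 RNA sequencing libraries of the series, 3 from each culture, chosen by their labels. The macrophages came from wildtype FVB mice. The tumor cells came from mammary primary tumors of MMTV-HER2 mice, in which the mouse mammary tumor virus promoter drives the oncogene mainly in mammary epithelium. Co-cultures ran for 7 days on gelled Matrigel in a medium with horse serum, hydrocortisone, insulin, EGF and antibiotics. The labels give the same medium and gel for the mono-cultured macrophages, also wildtype FVB. Co-cultured cells were separated by cell sorting, whose gate was not given in the sources used here. The labels do not say whether mono-cultures went through the sorter, so sorting and co-culture cannot be told apart. Further libraries served for comparison: the 3 libraries of primary tumor cells sorted from the same co-cultures, and 4 macrophage libraries (2 per culture) of a parallel experiment with early lesion cells from the same mouse model. The labels call the replicates biological but do not say how many mice stand behind a library, so p-values measure only the spread between these libraries.

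The 6 libraries held 21.2 to 26.4 M counts. Mitochondrially encoded genes took 65.7 to 72.7% of them in macrophages alone and 74.9 to 78.6% with tumor cells, groups that did not overlap, against 2.91 to 3.53% in the early lesion experiment's macrophages. Grip2 took 12.9% in mono-cultured replicate 1 and 1.85 to 2.60% in the other 5. Both were left out, which left 4.65 to 6.03 M counts per library for all else, and levels below are normalized counts per 1000000 of that remainder (CPM). Ribosomal protein genes, a set chosen after the data were seen, moved with culture (68 of 76 higher, 0 lower, median log2 change 0.88). The median change of genes with up to 2000 exonic bases was 0.15, and that of genes over 7000 bases was -0.10. The part of these shifts in the results below was not tested. The macrophage label fitted the markers: the 24 alveolar macrophage genes summed to 24977 to 29485 CPM alone and 27282 to 27928 CPM with tumor cells. None of the 24 was at 0 in either group. The 18 pan-macrophage genes summed to 10897 to 14901 CPM alone and to 6131 to 6889 CPM with tumor cells, lower without overlap. Of these, C1qa and C1qc were at 0 with tumor cells and had only 6 and 2 counts alone. Sums over a list, here and below, are plain CPM, without the normalization between libraries. Of other cell types, 7 of 9 neutrophil markers were at 0 with tumor cells, S100a9, Ly6g and Mpo among them, and 6 of 9 were at 0 alone. The 9 lymphocyte markers summed to under 1 CPM in every library.

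Alveolar macrophages clear surfactant lipid and particles from the air space and depend on the nuclear receptor PPARγ for their lipid handling. When oxygen or its sensing falls, hypoxia-inducible factors (HIF) raise glycolytic enzymes, glucose uptake and the prolyl hydroxylases that in turn limit HIF. NF-κB does the same for cytokines, chemokines and adhesion molecules when pattern receptors are engaged. TGF-β, made in a latent form and released by activators, maintains the alveolar macrophage state.

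Of 11095 genes tested, 1665 were higher with tumor cells (15%) and 1734 lower (15.6%), 30.6% in either direction (edgeR quasi-likelihood test, Benjamini-Hochberg adjusted p under 0.05). Without co-cultured replicate 3 the counts were 1288 higher and 1079 lower. The change was over 2-fold for 534 of those that rose and 500 of those that fell. Replicates of the groups did not overlap for 45.1% of the genes tested. The median log2 change over all genes tested was -0.02, so a change below is nearly the change relative to the typical gene. The 12 rising genes with the largest change, all at under 5 times the macrophage level in tumor cells, include genes of coagulation, complement, arginine metabolism, hypoxia and matrix turnover. Lack of overlap between the groups was a condition for naming them and the 12 falling genes, so it adds nothing to their calls.

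F13a1, the coagulation factor XIII A subunit and a marker of alternatively activated macrophages, was at 0.413, 0.335 and 0.156 CPM alone and at 49.2, 41.1 and 42.9 CPM with tumor cells. It had 1 or 2 counts in each mono-cultured library, and every co-cultured library was far above them (log2 change 7.14 ± 0.29, edgeR adjusted p = 5.38e-09). Lrg1, a secreted leucine-rich glycoprotein that modulates TGF-β signaling in endothelium, was at 0.825, 0.335 and 0.469 CPM alone and at 40.8, 62.8 and 45.6 CPM with tumor cells. The groups were far apart (6.50 ± 0.31, edgeR adjusted p = 8.04e-09). Tumor cells held 177 CPM of Lrg1, so its rise equals 26.0% of the tumor level. Arg1, the enzyme that turns arginine into ornithine, was at 0.413, 0.669 and 0.781 CPM alone and at 8.83, 24.7 and 18.9 CPM with tumor cells. Co-cultured replicate 1 was the lowest of its group, and still above every mono-cultured library (4.72 ± 0.47, edgeR adjusted p = 1.12e-05). C4b, complement component 4, was at 0.825, 0.335 and 0.781 CPM alone and at 7.85, 21.0 and 12.8 CPM with tumor cells, with co-cultured replicate 1 again lowest and no overlap (4.38 ± 0.47).

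Mmp8, the neutrophil-type collagenase, was at 29.3, 21.4 and 14.1 CPM alone and at 284, 361 and 341 CPM with tumor cells. The lowest co-cultured library was well above the highest mono-cultured one (3.95 ± 0.22, edgeR adjusted p = 2.49e-06), and tumor cells held 0.0782 CPM. Tgfbi, a secreted matrix protein named for its induction by TGF-β, was at 10.5, 8.70 and 5.47 CPM alone and at 93.2, 120.1 and 133 CPM with tumor cells, with no overlap (3.83 ± 0.21, edgeR adjusted p = 1.97e-07). Cxcr2, a receptor for neutrophil chemokines, was at 4.95, 2.68 and 6.25 CPM alone and at 29.4, 62.3 and 48.4 CPM with tumor cells without overlap (3.32 ± 0.34). Neutrophils carry this receptor. Of 9 neutrophil markers, 7 were at 0 in the co-cultured and 6 in the mono-cultured libraries. The list's summed level was 42.1 to 56.4 plain CPM with tumor cells and 76.5 to 95.4 plain CPM alone. Most of that sum was S100a8 (means of 50.3 and 82.9 plain CPM), and the part of neutrophils in the level of Cxcr2 was not tested. The adhesion molecule Mcam (3.27 ± 0.23), the soluble epoxide hydrolase Ephx2 (3.11 ± 0.28) and the cytochrome P450 gene Cyp2ab1 (4.48 ± 0.26) rose too, and Cyp2ab1 had no count in the tumor cells. Egln3 and Bnip3, the other 2 of the 12, are given with the hypoxia genes.

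**Figure D1:**
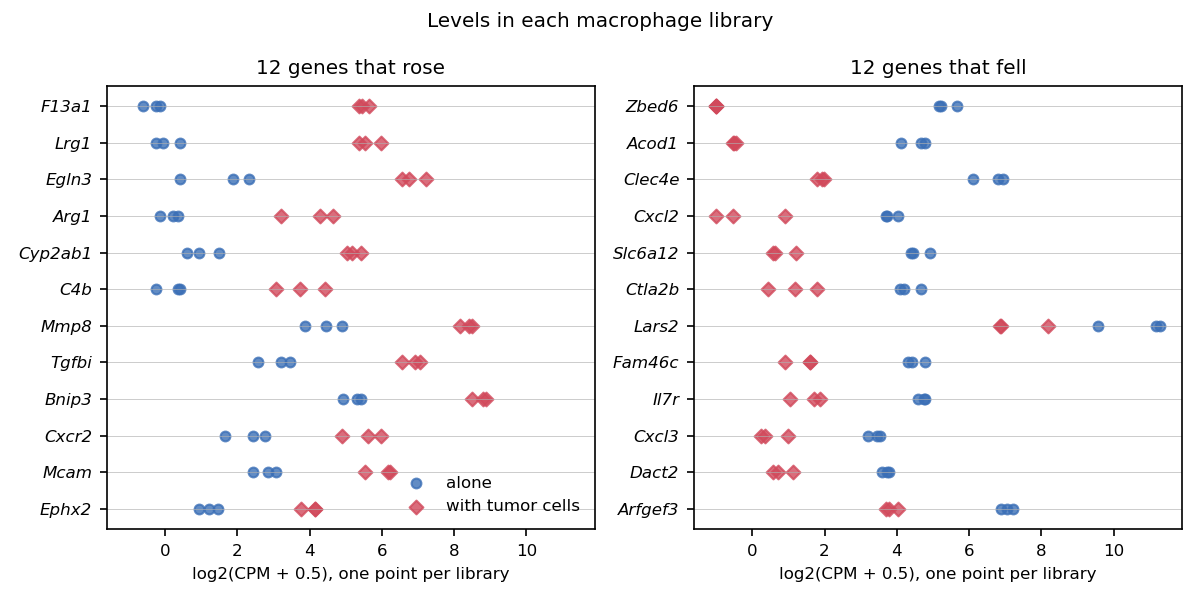
Level of the 12 named rising and 12 named falling genes in each of the 6 macrophage libraries, as log2(CPM + 0.5) (circles alone, diamonds with primary tumor cells). In no row do the 2 groups overlap, because the genes were chosen by that condition.

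Glycolysis genes rose nearly throughout. Of 17 listed enzymes and transporters, all tested, 15 rose and 0 fell, with a median log2 change of 1.14. Pgk1, phosphoglycerate kinase, was at 131, 160.3 and 208 CPM alone and at 743, 885 and 899 CPM with tumor cells. All 3 co-cultured libraries were above the mono-cultured ones (2.34 ± 0.16, edgeR adjusted p = 1.38e-06). Pfkfb3, which makes the activator of phosphofructokinase, was at 24.8, 33.0 and 35.0 CPM alone and at 167, 188 and 180.1 CPM with tumor cells, with no overlap (2.52 ± 0.13, edgeR adjusted p = 1.11e-08). Its level in tumor cells was 9.68 CPM, below that of the macrophages. Triose phosphate isomerase Tpi1 (1.58 ± 0.13), glucose phosphate isomerase Gpi1 (1.47 ± 0.11), the lactate exporter Slc16a3 (2.20 ± 0.20) and the glucose transporter Slc2a1 (1.14) rose as well. The hexokinases Hk1 (0.36) and Hk2 (-0.13) did not pass.

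Of 15 listed hypoxia targets outside glycolysis, 13 were tested, 11 rose and 0 fell, with a median of 1.50. Egln3, a HIF prolyl hydroxylase that HIF itself induces, was at 0.825, 3.18 and 4.53 CPM alone and at 93.8, 108 and 149 CPM with tumor cells. Mono-cultured replicate 1 was the lowest, and the groups were wide apart (5.28 ± 0.35, edgeR adjusted p = 1.7e-05). Bnip3, a mitochondrial protein that promotes mitophagy, was at 29.9, 39.5 and 42.3 CPM alone and at 362, 442 and 473 CPM with tumor cells. Again no library of one group reached the other (3.51 ± 0.14, edgeR adjusted p = 6.62e-09); 22.3% of its exonic bases overlap another gene, which makes its counts uncertain, since it is not known here whether counting used strand. The angiogenic factor Vegfa was at 3.71, 3.01 and 5.94 CPM alone and at 14.9, 21.5 and 17.2 CPM with tumor cells (2.06 ± 0.27), without overlap. The mTOR inhibitor Ddit4 (3.79 ± 0.28) and Ndrg1 (3.70 ± 0.28) rose while tumor cells held at least 5 times their macrophage level, with rises of 4.06 and 15.5% of it. Carbonic anhydrase Car9 (-0.05) and the demethylase Kdm3a (0.19) did not pass. Of 19 tested nuclear-encoded subunits of oxidative phosphorylation 0 rose and 5 fell, a share near the 30.6% of all genes tested (median 0.02). Ndufs1 (-0.56 ± 0.09) and Ndufa4 (-0.72 ± 0.13) were among those that fell.

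The core of the hypoxia response element is ACGTG, read on both strands (CACGT on the other). It occurred in the promoter window, 250 bases before to 50 after the start in RefSeq on GRCm38.p6, of 10 of the 15 glycolysis genes called higher (66.7%) and of 9 of the 9 called hypoxia genes with a window. The share was 30.2% of all tested genes with a window, 31.6% of all genes called higher and 32.8% of those called lower. The lists name known HIF targets, so the shares describe these genes and are no site of binding. The 250 bases before the start are shown for 3 of the genes above, 5′ to 3′ on the gene's strand, with each match in capitals. Pgk1 lies at chrX:106186850-106187099 on the plus strand and has 2 separate matches. Bnip3 lies at chr7:138909507-138909756 on the minus strand, where the matches on the 2 strands overlap in a palindrome, and Egln3 at chr12:54203875-54204124, also minus, has 1.
Pgk1: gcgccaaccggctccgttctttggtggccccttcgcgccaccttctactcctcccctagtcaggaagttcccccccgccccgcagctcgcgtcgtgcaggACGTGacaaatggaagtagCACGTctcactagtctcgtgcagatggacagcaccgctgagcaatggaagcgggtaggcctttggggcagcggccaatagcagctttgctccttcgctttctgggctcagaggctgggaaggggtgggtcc
Bnip3: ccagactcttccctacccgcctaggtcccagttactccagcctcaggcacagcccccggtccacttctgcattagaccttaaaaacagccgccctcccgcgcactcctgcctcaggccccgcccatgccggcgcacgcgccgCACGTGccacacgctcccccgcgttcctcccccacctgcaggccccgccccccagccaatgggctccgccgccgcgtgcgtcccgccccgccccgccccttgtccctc
Egln3: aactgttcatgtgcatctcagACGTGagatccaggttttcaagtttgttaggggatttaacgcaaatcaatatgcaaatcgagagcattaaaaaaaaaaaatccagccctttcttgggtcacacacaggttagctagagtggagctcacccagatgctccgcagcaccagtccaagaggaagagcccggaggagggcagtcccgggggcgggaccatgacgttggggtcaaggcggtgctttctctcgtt

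**Figure D2:**
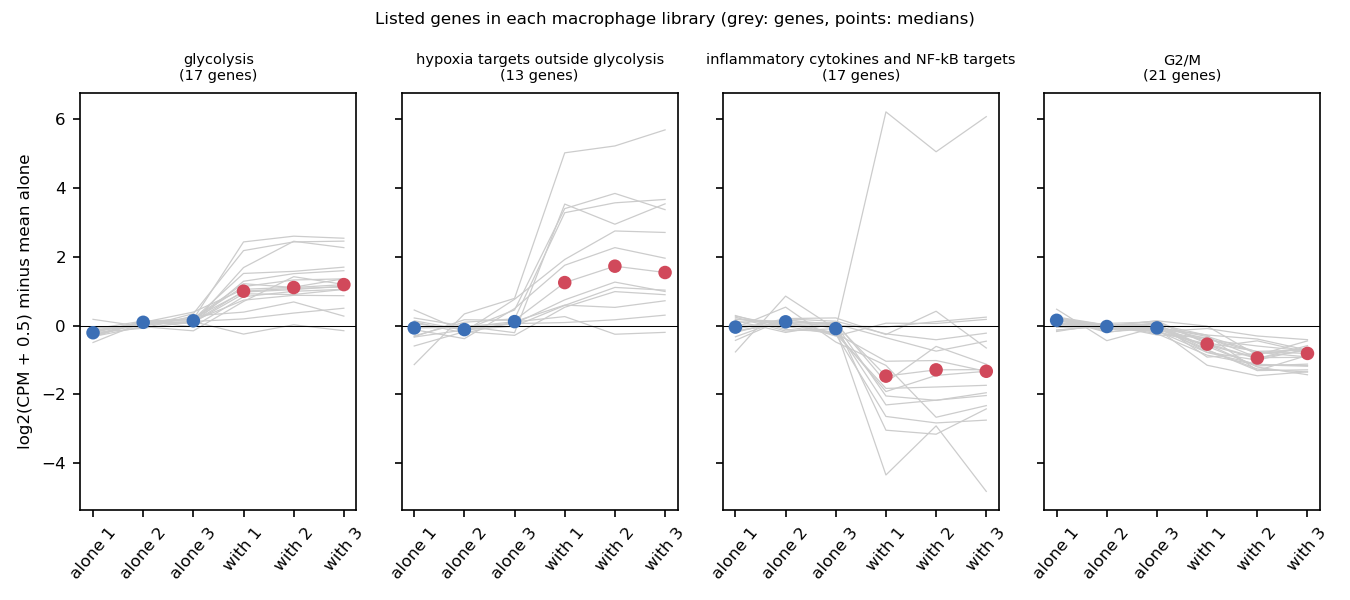
Listed glycolysis, hypoxia, inflammatory and G2/M genes in each library, as log2(CPM + 0.5) minus the mean of the 3 mono-cultured libraries (grey lines genes, points library medians). The medians of the co-cultured libraries lie above 0 for glycolysis and hypoxia and below 0 for inflammatory and G2/M genes, and the grey line far above the rest in the inflammatory panel is Lcn2.

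Inflammatory genes moved the other way. Of 27 listed cytokines and NF-κB targets, 17 were tested, 12 fell and 1 rose, with a median of -1.37. The riser was Lcn2, an iron-binding lipocalin, which is described with the tumor RNA. Cxcl2, a neutrophil chemokine, was at 12.6, 15.7 and 12.7 CPM alone and at 0.196, 1.37 and 0 CPM with tumor cells. Co-cultured replicate 3 had no count, and the groups did not overlap (-4.72 ± 0.52, edgeR adjusted p = 2.05e-05). Ccl3, a chemokine for monocytes and T cells, was at 199.9, 162 and 139 CPM alone and at 26.1, 22.8 and 24.2 CPM with tumor cells, with tight groups far apart (-2.77 ± 0.14, edgeR adjusted p = 1.45e-08). Tnfaip3, the ubiquitin-editing brake on NF-κB, was at 125, 112 and 92.3 CPM alone and at 30.4, 31.3 and 32.4 CPM with tumor cells, so a negative regulator fell along with the cytokines (-1.80 ± 0.13). The NF-κB subunits Relb (-2.13 ± 0.18) and Nfkb2 (-1.37 ± 0.15), the cytokine Tnf (-2.65 ± 0.41), the adhesion molecule Icam1 (-1.59 ± 0.19) and the chemokines Cxcl3 (-3.33 ± 0.37) and Cxcl1 (-2.45 ± 0.59) fell. Il1b did not pass, at 8.66, 13.7 and 13.9 CPM alone and 9.81, 16.0 and 7.36 CPM with tumor cells. Its groups overlapped (-0.15 ± 0.28, edgeR adjusted p = 0.728). Il6, Cxcl10, Ccl2 and Ccl5 had too few counts to test.

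Other genes among the 12 that fell most belong to innate sensing and metabolism. Acod1, which makes itaconate in activated macrophages, was at 25.0, 26.9 and 16.9 CPM alone and at 0.196, 0.228 and 0.210 CPM with tumor cells. It had 390 counts over the mono-cultured libraries and 3 over the co-cultured ones, a ratio of 107 (95% counting interval 36.5 to 523). Clec4e, the C-type lectin Mincle that senses mycobacterial glycolipid and dying cells, was at 123, 111 and 68.1 CPM alone and at 3.34, 3.42 and 2.95 CPM with tumor cells. The groups did not overlap (-4.95 ± 0.27, edgeR adjusted p = 3.76e-07), and tumor cells had no count. Il7r, the interleukin-7 receptor α chain, was at 26.6, 27.1 and 23.6 CPM alone and at 1.57, 2.74 and 3.16 CPM with tumor cells, also apart (-3.37 ± 0.24). The betaine and GABA transporter Slc6a12 (-4.21 ± 0.30), the poly(A) polymerase gene Fam46c (-3.39 ± 0.27), Dact2, which modulates Wnt and TGF-β signaling (-3.28 ± 0.31), and Arfgef3 (-3.25 ± 0.14) fell in every library. Ctla2b fell (-3.41 ± 0.33), but 68.7% of its exonic bases overlap other genes. Zbed6 had 695 counts alone and 0 with tumor cells, at least 191-fold lower against 3 counts over the group. All of its exonic bases overlap Zc3h11a, its host gene, so how reads were divided between them is uncertain. Lars2, mitochondrial leucyl-tRNA synthetase, was at 757, 2482 and 2294 CPM alone and at 116, 293 and 117 CPM with tumor cells. Mono-cultured replicate 1 was low and co-cultured replicate 2 high within their groups (-3.40 ± 0.73, edgeR adjusted p = 0.0317), and the call ended without mono-cultured replicate 2 or 3 or without co-cultured replicate 1 or 3 (edgeR adjusted p 0.0845 to 0.101). It also ended with no filter on low counts (0.0538).

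The NF-κB consensus motif, read on both strands, was in the promoter window of 6 of the 10 inflammatory genes called lower that have a window (Cxcl1, Cxcl2, Cxcl3, Nfkb2, Sod2 and Tnfaip3), and in 12.1% of all tested genes with a window, 12.6% of those called lower and 12.4% of those called higher. The list was made of known NF-κB targets and cytokines, so the share describes these genes and shows no binding. Cxcl2, the member with the largest fall, has overlapping matches on both strands in the 250 bases before its start at chr5:90903649-90903898, plus strand, shown in capitals.
Cxcl2: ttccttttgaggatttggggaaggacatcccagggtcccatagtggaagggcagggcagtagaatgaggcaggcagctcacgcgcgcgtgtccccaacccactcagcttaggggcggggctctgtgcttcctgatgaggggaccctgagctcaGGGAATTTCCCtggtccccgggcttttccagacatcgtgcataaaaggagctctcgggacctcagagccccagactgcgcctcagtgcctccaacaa

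**Figure D3:**
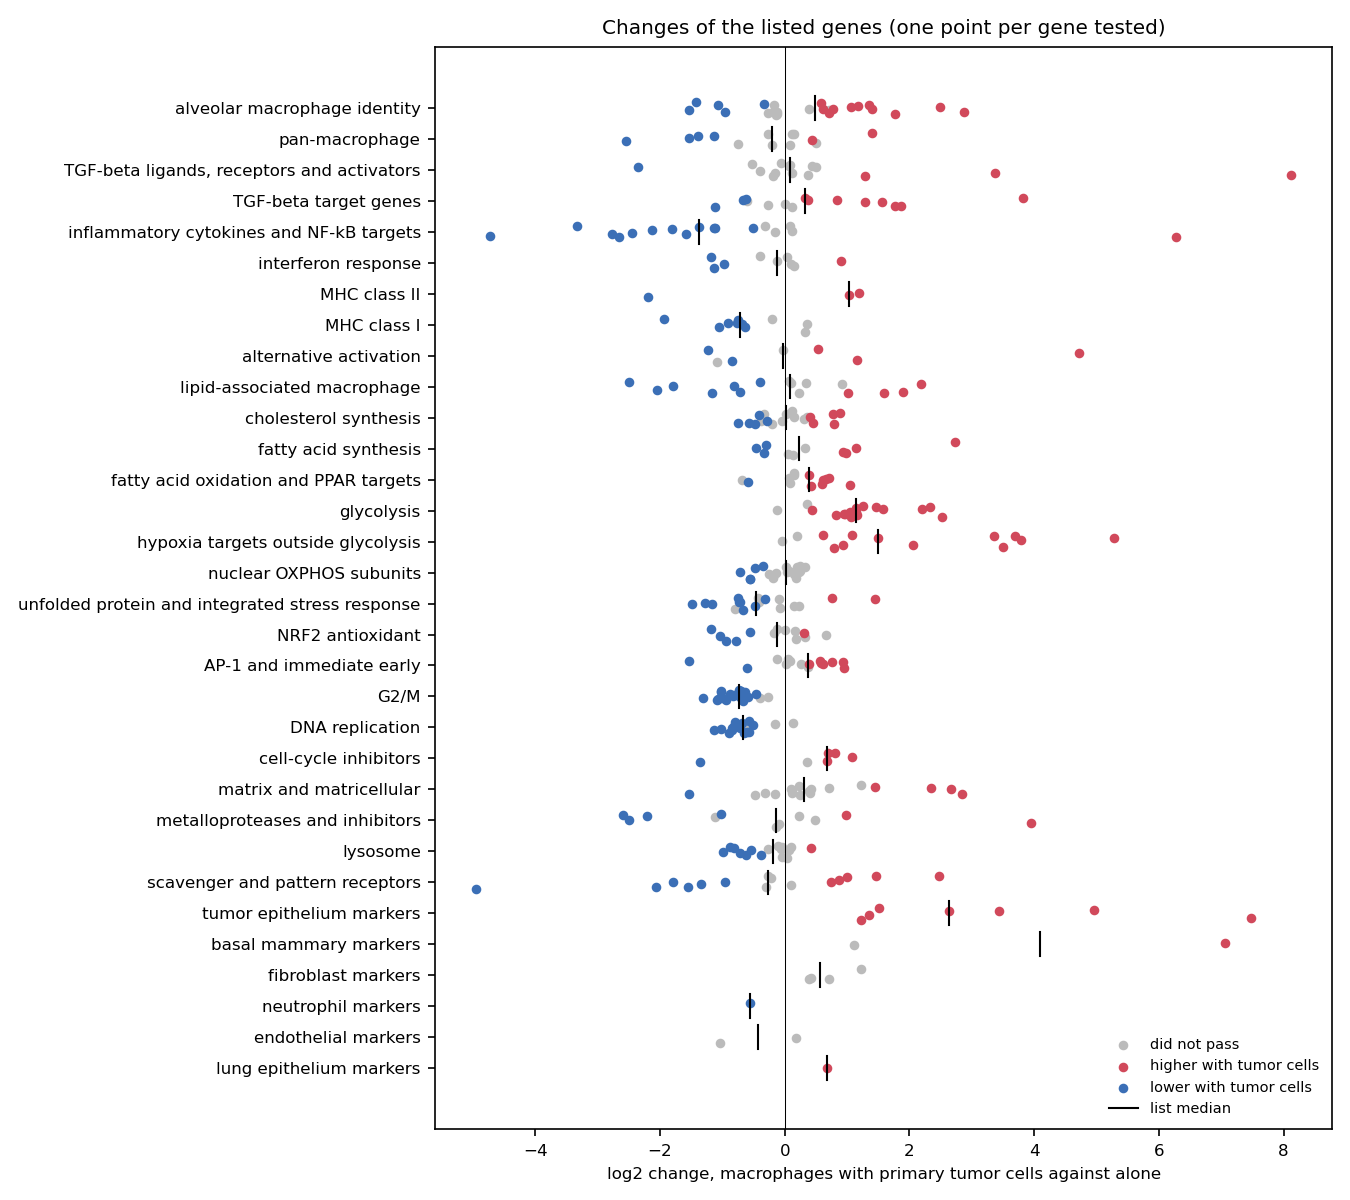
Log2 change with primary tumor cells of every tested gene of 32 lists (points, red higher and blue lower at an adjusted p under 0.05, grey not passing; bars list medians). Glycolysis and hypoxia lie to the right, G2/M, DNA replication, inflammatory and MHC class I genes mostly to the left, and lipid and cholesterol genes on both sides of 0.

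Alveolar macrophage identity genes split. Of 24 listed and tested, 11 rose and 5 fell, with a median of 0.48. The surface carbonic anhydrase Car4 was at 60.0, 49.9 and 47.3 CPM alone and at 163, 187 and 183 CPM with tumor cells, with no overlap (1.76 ± 0.11, edgeR adjusted p = 1.09e-07). The fatty acid binding protein Fabp1 was at 2.27, 3.18 and 5.00 CPM alone and at 29.6, 24.4 and 24.4 CPM with tumor cells, likewise apart (2.87 ± 0.25). The lipid droplet gene Cidec (2.49 ± 0.20), Krt79 (1.18 ± 0.13), the chitinase-like Chil3 (0.78 ± 0.14), the sialic acid receptor gene Siglecf (0.71 ± 0.18), the ribonuclease genes Ear1, Ear6 and Ear10 (1.06 to 1.40) and Pparg (0.58) rose. The integrin Itgax (CD11c), another defining gene, was at 187, 153 and 151 CPM alone and at 42.6, 67.1 and 60.0 CPM with tumor cells. Every co-cultured library was below every mono-cultured one (-1.53 ± 0.15, edgeR adjusted p = 1.89e-05). The oxidized lipoprotein receptor Olr1 (-1.43 ± 0.11), the GM-CSF receptor chain Csf2ra (-1.08), the scavenger receptor Marco (-0.95 ± 0.14) and Fabp4 (-0.34 ± 0.11) fell. Fabp4 was the one of these whose groups overlapped. Without co-cultured replicate 3 the calls of Siglecf and Fabp4 ended (edgeR adjusted p = 0.0521 and 0.215). That of Fabp4 also ended without mono-cultured replicate 2 or 3 or co-cultured replicate 2 (edgeR adjusted p 0.0966 to 0.157) and with the replicate block (0.0589). It ended too with all 4 groups of the primary tumor experiment, mono-cultured and co-cultured tumor cells included, in 1 fit (edgeR adjusted p = 0.0615).

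Among 18 pan-macrophage genes, 13 were tested, 2 rose and 4 fell, with a median of -0.21. Lyz2, lysozyme, was at 10118, 8558 and 7114 CPM alone and at 3448, 4439 and 3859 CPM with tumor cells, with no overlap (-1.13 ± 0.14, edgeR adjusted p = 3.84e-05). The integrin Itgam (CD11b) was at 78.2, 72.4 and 57.5 CPM alone and at 8.24, 12.3 and 14.9 CPM with tumor cells (-2.55 ± 0.20); its exons overlap other genes over 68.7% of their bases. The CSF1 receptor Csf1r (-1.54 ± 0.16) and the oxidase subunit Cybb (-1.39 ± 0.15) fell, and the signaling adaptor Tyrobp (0.43 ± 0.09) rose. In bulk libraries fewer cells of a type and less RNA per cell cannot be told apart. MHC class I genes were lower as a group (11 listed, 10 tested, 0 rose and 7 fell, median -0.72). The light chain B2m was at 1479, 1316 and 893 CPM alone and at 545, 594 and 628 CPM with tumor cells, without overlap (-1.06 ± 0.16). The peptide loading genes Tap1 (-0.68), Tap2 (-0.76) and Tapbp (-0.64 ± 0.15) and the activator Nlrc5 (-1.94 ± 0.36) fell with it. Of 7 class II genes only 3 were tested, and H2-DMa and H2-DMb1 rose while the invariant chain Cd74 fell, all at under 10 CPM. Their calls ended without co-cultured replicate 3 (edgeR adjusted p 0.0607 to 0.102), that of H2-DMb1 also without mono-cultured replicate 2 or 3, and that of Cd74 also without mono-cultured replicate 1 or co-cultured replicate 2.

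Of 19 listed scavenger and pattern receptors 15 were tested, 5 rose and 6 fell (median -0.27). The inhibitory receptor Fcgr2b was at 8.05, 9.03 and 10.3 CPM alone and at 37.1, 64.6 and 52.6 CPM with tumor cells, with no overlap (2.48 ± 0.21). Fcgr4 (1.47 ± 0.11) and Fcgr3 (0.87 ± 0.11) and the HDL receptor Scarb1 (1.01 ± 0.11) also rose. Toll-like receptor gene Tlr2 was at 182, 150.4 and 113 CPM alone and at 44.9, 55.0 and 51.1 CPM with tumor cells (-1.56 ± 0.16), again apart. Tlr7 (-1.35), Clec4d (-2.06 ± 0.20) and Cd36 (-1.79 ± 0.15) fell. Of 16 alternative activation genes 7 were tested, with 3 up (Arg1, the IL-4 receptor Il4ra at 1.17 ± 0.20 and the mannose receptor Mrc1 at 0.54 ± 0.14) and 2 down (Clec7a at -1.23 ± 0.16 and Irf4 at -0.85 ± 0.30). Mrc1 lost its call without mono-cultured replicate 2 or co-cultured replicate 2 or 3 (edgeR adjusted p 0.052 to 0.0693), and Irf4 without any library other than mono-cultured replicate 3 (0.0773 to 0.214). The call of Irf4 also ended under 7 other settings, RLE scaling and DESeq2 among them (adjusted p 0.0505 to 0.0877). Retnla and Alox15 had no count, and the median was -0.03. Interferon response genes were mostly below the filter (19 listed, 9 tested, 1 rose, 3 fell, median -0.13).

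Lipid genes changed in both directions. Of 16 lipid-associated macrophage genes, all tested, 4 rose and 7 fell (median 0.08). The cholesterol exporter Abcg1 was at 546, 521 and 474 CPM alone and at 919.5, 1100.1 and 1106 CPM with tumor cells, without overlap (1.02 ± 0.10, edgeR adjusted p = 6.45e-06). Apoe (1.89 ± 0.19) and Abca1 (1.59 ± 0.31) rose with it, Abca1 not without mono-cultured replicate 1 or 3 (edgeR adjusted p = 0.0709 and 0.0607). Lipoprotein lipase Lpl was at 592, 505 and 416 CPM alone and at 117, 131 and 116 CPM with tumor cells, also apart (-2.05 ± 0.12, edgeR adjusted p = 8.2e-08). Gpnmb (-1.17 ± 0.18) and the elastase Mmp12 (-2.50 ± 0.27) fell. Fatty acid oxidation and PPAR targets mostly rose (13 tested, 7 rose, 1 fell, median 0.39). Cpt2, a carnitine palmitoyltransferase of the mitochondrial inner membrane, was at 35.7, 37.8 and 43.6 CPM alone and at 57.3, 59.4 and 60.8 CPM with tumor cells, without overlap (0.60 ± 0.12). The mitochondrial carrier Ucp2 (0.72 ± 0.10) and the isomerase Ech1 (0.66 ± 0.10) also rose, and the acyl-CoA dehydrogenase Acadl fell (-0.59 ± 0.09). Fatty acid synthesis had 4 up and 3 down of 10 (median 0.22). ATP citrate lyase Acly (0.99 ± 0.09) rose, while Fasn (-0.30 ± 0.09) and Acaca (-0.34 ± 0.10) fell. The desaturases Scd1 (2.74 ± 0.14), Scd2 (1.15 ± 0.11) and Fads2 (0.93 ± 0.29) rose and were at least 5 times higher in tumor cells. Their rises equal 4.39, 7.99 and 2.49% of the tumor level. Fasn and Acaca did not pass without mono-cultured replicate 2 or co-cultured replicate 2 or 3 (edgeR adjusted p 0.0578 to 0.137), nor Fads2 without mono-cultured replicate 2 or 3 or co-cultured replicate 1 or 3 (0.0786 to 0.102). Cholesterol synthesis had 5 up and 5 down of 19 (median 0.01), with Hmgcs1 up (0.89 ± 0.10).

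Of 20 listed TGF-β ligands, receptors and activators 15 were tested, 3 rose and 1 fell, a share near the 30.6% of all genes tested (median 0.08, the same with Inhbb at its bound). Tgfb1 was at 202, 168 and 147 CPM alone and at 169, 185 and 191 CPM with tumor cells, in overlapping groups (0.08 ± 0.11, edgeR adjusted p = 0.648). The receptors Tgfbr1 (-0.19 ± 0.15) and Tgfbr2 (0.07 ± 0.11) did not pass either. Tgfb2 had 1 to 9 counts per library and was not tested. The risers Tgfb3 (3.38 ± 0.64), Ltbp2 (1.29 ± 0.30) and Inhbb were all at least 5 times higher in tumor cells. Their rises equal 0.618, 1.30 and 0.593% of the tumor level, near the share of the tumor markers given below. Inhbb had 0 counts alone and 95 with tumor cells, at least 38.3-fold higher against 3 counts over the group. Inhba, the activin A subunit, was at 17.7, 15.4 and 13.6 CPM alone and at 2.75, 3.88 and 2.52 CPM with tumor cells, and fell without overlap (-2.35 ± 0.26, edgeR adjusted p = 1.4e-05). Of 17 target genes 15 were tested, 8 rose and 3 fell (median 0.33). Besides Tgfbi, the repressor Klf10 (0.83 ± 0.09), the stress gene Gadd45b (1.55) and Id1 (1.77 ± 0.20) rose, and Id2 (-1.11 ± 0.11), Smurf1 (-0.67 ± 0.12) and Tgif1 (-0.62 ± 0.14) fell. Pmepa1 and Ltbp2, which is in both lists, were the 2 of the 8 at least 5 times higher in tumor cells. The rise of Pmepa1 equals 1.16% of its tumor level.

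Proliferation genes fell. Of 21 G2/M genes tested, 0 rose and 18 fell (median -0.73), and of 20 DNA replication genes 0 rose and 14 fell (median -0.67). Mki67, the proliferation antigen, was at 604, 582 and 539.6 CPM alone and at 259, 209 and 227 CPM with tumor cells. The highest co-cultured library was below the lowest mono-cultured one (-1.31 ± 0.10, edgeR adjusted p = 4.8e-07). Cyclin B1 Ccnb1 (-1.07 ± 0.14), the spindle factor Tpx2 (-1.02 ± 0.14), the replicative helicase subunit Mcm6 (-0.90 ± 0.16) and the clamp Pcna (-0.58 ± 0.10) fell too. Of 11 listed cell-cycle inhibitors, cyclin-dependent kinase inhibitors and others such as the antiproliferative Btg1, 6 were tested, 4 rose and 1 fell (median 0.69). Cdkn1a (p21) was at 30.1, 30.1 and 30.2 CPM alone and at 65.3, 68.7 and 57.2 CPM with tumor cells, with no overlap (1.08 ± 0.12, edgeR adjusted p = 1.76e-05). Cdkn1b (0.67 ± 0.11), Cdkn2d (0.81 ± 0.25) and Btg1 (0.70 ± 0.10) rose, and Cdkn2c (-1.35 ± 0.21) fell. Cdkn2d passed only with all 6 libraries and without mono-cultured replicate 3 or co-cultured replicate 1 (edgeR adjusted p 0.0512 to 0.0849 without any other).

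Stress and degradation genes were mixed or lower. Of 18 tested genes of the unfolded protein and integrated stress response, 9 fell and 2 rose (median -0.46): the chaperone Hspa5 (-0.75 ± 0.10), the serine synthesis enzyme Phgdh (-1.17 ± 0.12) and Atf3 (-1.28 ± 0.18) fell, and Xbp1 (0.75 ± 0.09) and Sesn2 (1.44 ± 0.18) rose. NRF2 targets had 1 up and 5 down of 13 (median -0.13), with thioredoxin reductase Txnrd1 (-1.04 ± 0.09) and the cystine transporter Slc7a11 (-1.18 ± 0.23) down. Immediate early and AP-1 genes had 7 up and 2 down of 15 tested (median 0.37), with Fosl2 (0.95 ± 0.09) up and Egr1 (-1.54 ± 0.18) down. Lysosomal genes had 1 up and 7 down of 16 (median -0.19), with the protease Ctsb (-0.81 ± 0.16) and β-glucuronidase Gusb (-0.98 ± 0.15) down. Of 11 tested metalloproteases and inhibitors 2 rose (Mmp8 and Timp2, 0.98 ± 0.19) and 4 fell, among them the gelatinase Mmp2 (-2.21 ± 0.19) and the sheddase Adam8 (-2.60 ± 0.21). Of 18 tested matrix genes 4 rose and 1 fell, a share near the 30.6% of all genes tested (median 0.32). Fibronectin Fn1 was at 46.6, 39.0 and 43.3 CPM alone and at 200.3, 374 and 348 CPM with tumor cells, with no overlap (2.84 ± 0.24), and a rise of 28.6% of the tumor level. The other matrix risers, Lama5, Lamb1 and Tnc, were at least 5 times higher in tumor cells, with rises of 3.89, 2.27 and 3.39% of the tumor level.

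Tumor RNA in the sorted macrophages was read from 15 tumor epithelium markers. Their summed level was 43.4 to 58.6 CPM alone, 254 to 292 CPM with tumor cells and 9469 to 10745 CPM in the co-cultured tumor cells (here plain CPM, without the normalization between libraries). Most of the sum in macrophages with tumor cells was Krt19, at means of 151 plain CPM there and 27.1 plain CPM alone. In the tumor cells themselves Krt19 had a mean of only 214 plain CPM. The rise of the sum therefore mainly follows Krt19, which stood apart from the other markers, as given below. The summed basal mammary markers went from 3.65 to 6.02 CPM alone to 15.4 to 37.9 CPM, the fibroblast markers from 14.7 to 34.2 to 32.2 to 62.5 CPM and the lung epithelium markers from 17.6 to 25.6 to 25.5 to 30.6 CPM, the last 2 with overlapping ranges. Most of the lung epithelium sum was Napsa, at means of 19.0 plain CPM alone and 26.8 plain CPM with tumor cells. The surfactant genes Sftpc and Sftpa1 had no count in the macrophages. All 7 tumor markers that could be tested rose (median log2 change 2.63, the same with Esrp1 at its bound). Epcam, the epithelial adhesion molecule, was at 0, 0.335 and 0.156 CPM alone and at 5.49, 4.11 and 8.62 CPM with tumor cells, 3 against 87 counts, a ratio of 35.1 (95% counting interval 11.6 to 174). Erbb2, the gene of the HER2 receptor, was at 8.05, 7.36 and 7.34 CPM alone and at 75.3, 72.2 and 97.8 CPM with tumor cells, with no overlap (3.43 ± 0.17). Esrp1, an epithelial splicing regulator, had 0 counts alone and 60 with tumor cells, at least 24.2-fold higher. Prom2 was at 0 in all 6 libraries. The median rise over the 15 markers was 0.685% of the tumor level, and Krt19, at 16.3, 26.8 and 33.7 CPM alone and 142, 171 and 169 CPM with tumor cells, stood apart with a rise of 58.0% of it.

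The 6 named candidates, at least 5 times higher in tumor cells, were the basal keratin Krt14, the milk proteins Csn3 and Csn1s1, Lcn2, the chitinase-like Chil1 and the growth factor binding protein Igfbp5, with rises of 0.451 to 0.875% of the tumor level. Krt14 had 2 counts alone and 269 with tumor cells, a ratio of 163 (95% counting interval 44.6 to 1351). Igfbp5 was at 4.74, 5.02 and 3.12 CPM alone and at 192, 41.3 and 79.1 CPM with tumor cells, highest in co-cultured replicate 1, and its call ended without any 1 of the mono-cultured libraries (edgeR adjusted p 0.0777 to 0.0847). In the sorted tumor cells it was likewise highest in replicate 1, at 19229 CPM against 7265 and 6406 CPM. The other candidates were split. Csn1s1 was highest in replicate 1 of both cell types and Krt14 in replicate 3 of both. Csn3, Lcn2 and Chil1 were highest in tumor replicate 2, while co-cultured macrophage replicate 2 was the lowest of its group. Across all risers the share was mostly larger than that of the markers: 1403 of 1665 (84.3%) rose by over 10% of the tumor level. In all, 138 risers (8.29%) were at least 5 times higher in tumor cells, as were 8.64% of all genes tested. By this measure the rises of Mmp8, Cyp2ab1, Cxcr2, F13a1 and Bnip3 exceeded the whole tumor level, and those of Tpi1 and Pgk1 came to 51.2 and 47.4% of it. The lipid-associated gene Spp1 (osteopontin) rose by 2.18 ± 0.19, which is 0.768% of its tumor level. Which transcripts of a single gene came from tumor cells was not tested.

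**Figure D4:**
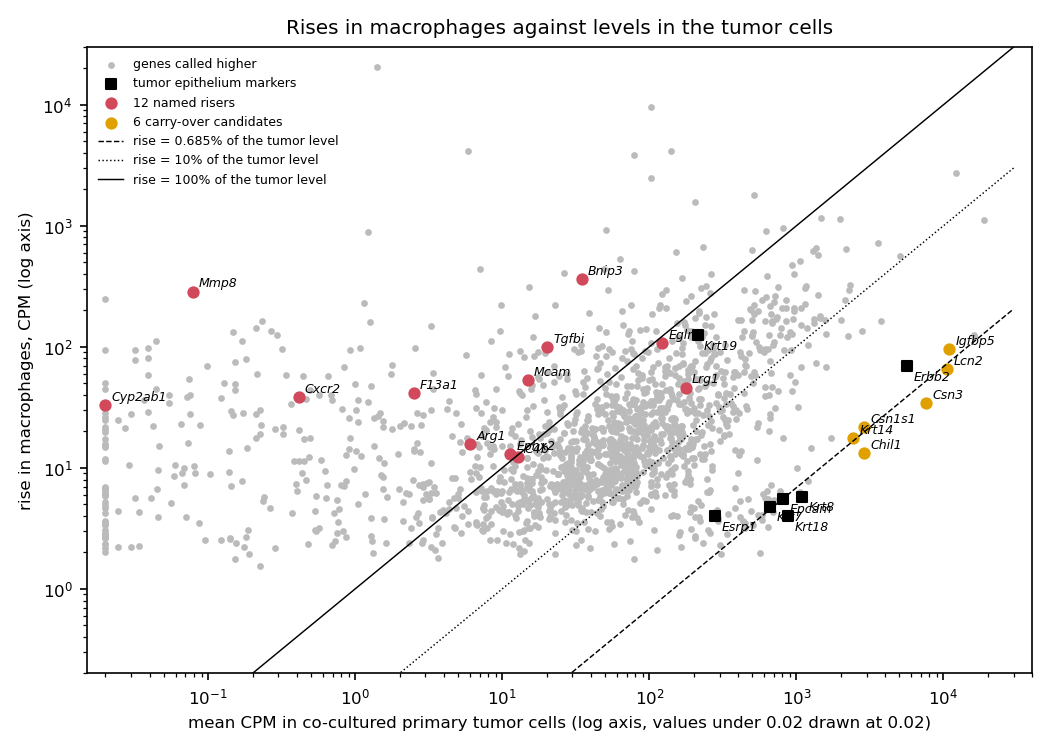
Rise in macrophages (co-culture minus mono-culture, CPM) of the genes called higher, against the level in the co-cultured tumor cells (CPM), both axes log. The dashed line marks 0.685% of the tumor level, the median of the 15 tumor markers. The 6 candidates lie near it. The 12 named risers lie well above it, which their choice at under 5 times the macrophage level in tumor cells made certain.

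Whether the response differed from that with early lesion cells was tested as an interaction over 10 macrophage libraries. The difference passed for 1544 of 12199 genes (12.7%), with 812 higher (6.66%) and 732 lower (6%) with primary tumor cells (edgeR quasi-likelihood, adjusted p under 0.05). The response to early lesion cells itself passed for 1029 genes (8.44%). The 2 experiments differ in the mitochondrial share and in counts per library, so tumor stage and experiment cannot be told apart. Without any 1 of the 4 early lesion experiment libraries the count was 556 to 897, with the lone library of a group assumed to vary like the rest. F13a1, Arg1 and Acod1 had large changes in both: F13a1 changed by 7.23 and 6.31, Arg1 by 4.74 and 4.04 and Acod1 by -6.71 and -4.69 with primary tumor and early lesion cells. Their differences did not pass, and the errors were wide (F13a1 0.92 ± 0.91, Arg1 0.70 ± 1.21, Acod1 -2.02 ± 0.76). Egln3 changed by 1.09 with early lesion cells, a difference of 4.20 ± 0.58 (edgeR adjusted p = 0.00321). Bnip3 changed by 0.78 there, a difference of 2.73 ± 0.25 (edgeR adjusted p = 9.64e-05). Il7r changed by -0.54, a difference of -2.83 ± 0.26 (edgeR adjusted p = 4.25e-05). Egln3, Bnip3 and Il7r were named for their large change with primary tumor cells. That choice favors a smaller response with early lesion cells.

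Responses of listed groups of genes differed between the experiments as well. Of 17 glycolysis genes 12 had a larger response with primary tumor cells and 0 a smaller one (medians 1.14 and 0.32). For hypoxia targets it was 6 of 14 and 0 (medians 1.29 and 0.52). Of 21 G2/M genes 14 had a lower response (medians -0.73 and -0.02), and Mki67 was at -0.09 with early lesion cells, a difference of -1.22 ± 0.15 (edgeR adjusted p = 0.000252). Of 20 inflammatory genes 7 had a lower response and 0 a higher one (medians -1.25 and -0.54), Ccl3 among them (-1.20 ± 0.22), while Tnfaip3 did not pass (-0.26 ± 0.18). Without any 1 of the early lesion experiment's libraries the G2/M count was 6 to 9 and the inflammatory count 2 to 4, and the latter was 3 without co-cultured replicate 3. The glycolysis count was 7 without co-cultured replicate 3, or without mono-cultured replicate 1 or co-cultured replicate 2 of the early lesion experiment. A pair of genes went opposite ways: Adam8 fell with primary tumor cells and was at 1.24 with early lesion cells (-3.83 ± 0.25, edgeR adjusted p = 3.64e-06), and Egr1 fell and was at 1.19 (-2.72 ± 0.31, edgeR adjusted p = 0.000154). Fn1 and Spp1 did not pass, with differences of -1.08 ± 0.36 and 0.19 ± 0.26.

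**Figure D5:**
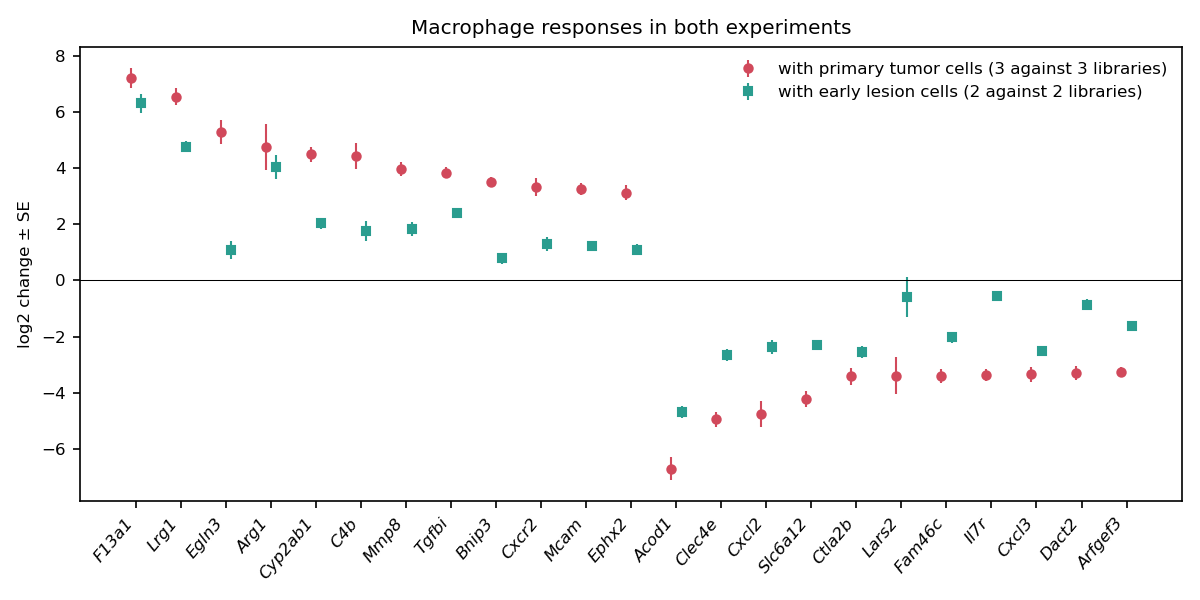
Log2 change ± SE of 23 named genes in macrophages with primary tumor cells (circles, 3 against 3 libraries) and with early lesion cells (squares, 2 against 2). Most squares lie nearer 0 than the circles, which the choice of these genes by their large change with primary tumor cells favors. F13a1, Arg1, Acod1, Ctla2b and Cxcl3 are those besides Lars2 whose difference did not pass.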

How the data were processed

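Oligo-dT selected RNA was sequenced from macrophages and tumor cells. The authors deposited raw read counts per gene symbol, per the labels, in 1 table per experiment. Per the submitters' processing notes, bcl2fastq 2.17 and mm10 were used. The aligner, the counter, the annotation and the use of strand were not given in the sources used here. The 13 symbols starting with mt- and Grip2 were left out before library sizes.

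Groups came from the labels. Tests were edgeR's quasi-likelihood F tests (version 4.0.16, R 4.3.3), two-sided, with filterByExpr, TMM, robust estimation and Benjamini-Hochberg adjustment over all genes tested, at a threshold of 0.05. CPM were computed from the counts with TMM factors, or without them (plain CPM) where tumor cells are compared and for sums over a list. Counting intervals (95%) and bounds of 3 counts cover counting error only. On counts simulated for co-cultured against mono-cultured macrophages (11095 genes, 200 changed), 38.6, 77.8 and 88.7% of 1.5-fold, 2-fold and 4-fold changes were recovered, with 8 false among 149 calls. The simulated share of changed genes was far below the 30.6% called in the data. The adjusted threshold depends on that share, so these rates are not those of the real comparison.

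The comparison and the 34 lists (498 symbols) were chosen with earlier results of these data known. Named were, by size of change, the first 12 risers and the first 12 fallers (at least 10 CPM, no overlap of replicates, no provisional symbol, and, for risers, under 5 times the level in tumor cells), 6 risers failing only the last condition, up to 4 called members of each list per direction with the smallest adjusted p (2 members where none passed), and 11 fixed genes. Other list members named, such as Vegfa, Tnf, Il1b and Slc16a3, were chosen after their values were seen. Of the genes so named, 3 are not reported here. Overlaps used GENCODE on GRCm38. Promoter motifs were chosen after the changes were seen. A narrower NF-κB motif was searched first. It was replaced by the consensus after its matches were seen, for reasons of reporting and not for its values, which are not reported here.

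Alternatives were RLE scaling, no low count filter, DESeq2 1.42.0, no robust dispersion, a test against a log2 change of 1, a replicate block, mt- symbols and Grip2 kept, all 4 groups in 1 fit, genes 5 or 2 times higher in tumor cells left out, each library left out and, chosen after seeing the data, 16 symbols left out that share at least 30 31-mers with mitochondrial transcripts. The 4 groups are those of the primary tumor experiment, macrophages and tumor cells, each alone and co-cultured.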

Additional observations from a re-analysis of the deposited data

Results flagged for a closer look

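The response of these named genes differed between macrophages with primary tumor and with early lesion cells (interaction in edgeR over 10 libraries, adjusted p under 0.05). All but Chil3, Cdh1 and Itgax were chosen by their large change with primary tumor cells, in libraries that also enter the difference. That choice favors a larger response with primary tumor cells, so the shared direction of these differences adds nothing. On the log2 scale the response of Egln3 was higher with primary tumor cells by 4.20, that of Bnip3 by 2.73, of C4b by 2.66, of Cyp2ab1 by 2.47, of Mmp8 by 2.12, of Mcam by 2.05, of Ephx2 by 2.04, of Cxcr2 by 2.03, of Lrg1 by 1.78 and of Tgfbi by 1.43. That of Chil3 was higher by 0.727. The difference was -2.83 for Il7r, -2.43 for Dact2, -2.40 for Cxcl2, -2.30 for Clec4e, -1.93 for Slc6a12, -1.64 for Arfgef3, -1.37 for Fam46c, -0.926 for Cdh1 and -0.808 for Itgax. Cdh1 passed in this difference although neither its change with primary tumor cells nor a separation of those groups was found: its response was 0.42 there and 1.34 with early lesion cells, and the tumor cells held 30.8 times its level in the co-cultured macrophages.

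Outside the genes tested, mitochondrially encoded genes took 76.7% of the counts in co-cultured and 69.3% in mono-cultured macrophages.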

How the results depend on the processing

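Against 1665 higher and 1734 lower genes, testing a log2 change of at least 1 left 179 and 123. Without 1 library the counts ranged from 1288 to 1674 higher and from 1079 to 1675 lower, lowest without co-cultured replicate 3. Of list members 239 passed, 59 with a log2 change of at least 1 and 156 without genes 2 times higher in tumor cells, where fewer genes were tested. Of 177 named genes 169 passed; 24 lost the call under some setting other than the log2 change, and 0 of the 169 turned sign. Same-numbered libraries did not deviate together (r -0.0943, -0.00181 and -0.0292), so libraries were taken to share only a number. With the replicate block 1497 and 1552 genes passed. The 1544 differences between experiments fell to 994 with the replicate block and ranged from 556 to 1970 without 1 library. The median tumor marker rise was 0.685% of the tumor level, 0.149% with mt- symbols and Grip2 kept, and 0.590 to 0.811% without 1 library. Genes not called turned sign without 1 library. The change of Tgfb1 ranged from -0.0294 to 0.202 and that of Tgfbr2 from -0.0112 to 0.181. The difference between experiments ranged from -0.0106 to 1.24 for Arg1, -0.327 to 0.843 for Igfbp5, -0.171 to 0.0565 for Tgfb1, -0.878 to 0.971 for Tgfb3 and -0.0806 to 0.0912 for Tgfbr2. The cause of these shifts was not tested. Some 4.65 to 6.03 M usable counts limit low genes.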
